A study of Mus musculus with 10 samples.

Results

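The 10 genes described here are immediate early genes, which cells transcribe within minutes of stimulation, and S100a5, a slower activity gene of olfactory sensory neurons. They are Fos, Fosb, Egr1, Jun, Junb, Nr4a1, Arc, Ier2, Dusp1 and S100a5, chosen by name from the 24421 rows of the raw count table, and all 10 passed the filter on low counts that left 17197 genes to test. RNA-seq had been done on the whole main olfactory epithelium (MOE), taken at postnatal day 14 from mice labelled C57BL/6 (the study describes its lines in general as being of mixed background, C57BL/6J and 129). The MOE is the sheet of the nasal cavity in which olfactory sensory neurons (OSNs) lie. The 3 groups were wild type (WT, 3 libraries), mice with 1 allele lacking both TAAR enhancer 1 and TAAR enhancer 2 (het, 3 libraries) and mice with both alleles lacking them (homo, 4 libraries). These enhancers lie in the cluster of trace amine-associated receptor (Taar) genes, which a small class of OSNs expresses. The labels name no odour exposure or other stimulus. By the study's account the groups were littermates and all mutant mice came from 1 double knockout line made with CRISPR-Cas9 in zygotes, and the tissue was taken whole, so that every cell type of the epithelium contributed RNA. In such bulk RNA, fewer cells of a type and less RNA per cell cannot be told apart.

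Immediate early genes need no new protein synthesis to be transcribed. In neurons, calcium and cAMP signals reach kinases that act on factors already bound at their promoters, such as CREB at the cAMP response element and serum response factor at the CArG box, and the transcripts are short-lived. Most members encode transcription factors that then change slower genes, while S100a5 encodes a calcium-binding protein of OSNs whose level is known to depend on odour-driven activity.

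The 10 libraries held 21423861 to 27712948 counts each, and 19078 to 19477 genes had a count. The summed Taar level, in CPM (raw counts over the library total, scaled alike in all libraries), was 34.2 to 36.7 in WT, 30.9 to 36.2 in het and 0.0934 to 0.221 in homo libraries, so each homo library lay below each WT and het library. Markers of mature OSNs summed to 9456 to 11300 CPM in the 10 libraries, and skeletal muscle markers to 0.505 to 2.21 CPM. Y-linked genes had over 1000 counts in 4 libraries, namely homo-2 and homo-3, WT-1 and het-1.

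Promoter sequences are shown because the letters of the cAMP response element were common among the members. RefSeq sequences (GRCm38.p6) of the 250 bases before the start site were matched for 7 of the 10 members, and Egr1, Arc and Ier2 were not matched. The core of the cAMP response element, TGACG, or CGTCA on the other strand, was searched on both strands. It was found in 5 of the 7 windows (Fos, Fosb, Junb, Nr4a1 and Dusp1), against 17.9% of the windows of 27025 promoters, and the full element TGACGTCA, which contains the core on each strand, was in Dusp1 and in 1.62% of all windows. The 27025 windows were not matched to those of the members for base composition, so these shares do not allow for it. The 4 windows below show the range among the members, with the core in capitals: Fos has it at positions -129 and -66 relative to its start site, Nr4a1 at -233, -213, -69 and -40, Dusp1 at -191 and within the full element that begins at -143, and S100a5 not at all. The Fos window also holds TATAAA, at -33, as do 13% of all windows. No window of the 7 held the AP-1 letters TGANTCA (6.87% of all) or a CArG box (1.4% of all). Sequence farther than 250 bases before the start site was not searched, nor were Egr1, Arc and Ier2. Their absence from these windows therefore does not show that the promoters lack them. A match describes letters and was not taken as a bound site. The 4 windows lie at chr12:85473640-85473889 (plus strand), chr15:101266596-101266845 (plus strand, inside the annotated span of Nr4a1), chr17:26508473-26508722 (minus strand, inside the annotated span of Dusp1) and chr3:90608272-90608521 (plus strand).
Fos: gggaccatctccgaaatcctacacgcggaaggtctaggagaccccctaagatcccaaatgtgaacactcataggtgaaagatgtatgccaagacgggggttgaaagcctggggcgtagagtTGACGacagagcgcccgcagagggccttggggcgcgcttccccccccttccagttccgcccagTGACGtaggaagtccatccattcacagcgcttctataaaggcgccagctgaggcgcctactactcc
Nr4a1: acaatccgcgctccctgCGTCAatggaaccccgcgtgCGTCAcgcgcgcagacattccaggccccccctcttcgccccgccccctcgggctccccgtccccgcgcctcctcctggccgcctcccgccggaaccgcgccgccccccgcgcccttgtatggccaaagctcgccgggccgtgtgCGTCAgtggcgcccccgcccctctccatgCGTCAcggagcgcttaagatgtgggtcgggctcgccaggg
Dusp1: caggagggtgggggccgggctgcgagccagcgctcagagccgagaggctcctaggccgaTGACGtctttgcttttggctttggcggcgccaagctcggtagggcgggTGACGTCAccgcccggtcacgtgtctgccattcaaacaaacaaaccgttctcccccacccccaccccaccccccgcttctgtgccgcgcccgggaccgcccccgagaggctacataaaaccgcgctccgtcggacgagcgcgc
S100a5: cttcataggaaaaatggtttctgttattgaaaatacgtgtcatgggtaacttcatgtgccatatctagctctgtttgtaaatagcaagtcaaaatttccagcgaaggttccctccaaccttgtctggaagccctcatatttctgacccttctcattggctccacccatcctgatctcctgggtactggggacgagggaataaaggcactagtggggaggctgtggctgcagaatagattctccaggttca

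Fos was the member with the clearest pattern across the genotypes. It encodes the DNA-binding partner of the Jun proteins in the AP-1 factor and lies on chromosome 12 (85473890 to 85477273, mm10, plus strand). Its level was 6.58, 4.34 and 5.02 CPM in WT-1 to WT-3, 13.2, 7.61 and 15.4 CPM in het-1 to het-3, and 8.40, 4.38, 5.42 and 14.04 CPM in homo-1 to homo-4. Each het library was above each WT library, whereas homo-2 and homo-3 were within the WT range and homo-1 and homo-4 within the het range. These levels rest on 99 to 389 counts a library. Mean Fos levels were 5.31 ± 1.15 CPM for WT, 12.1 ± 4.01 CPM for het and 8.06 ± 4.34 CPM for homo mice (± SD, n = 3, 3 and 4).

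The log2 fold change of Fos in het against WT mice was 1.18 (SE 0.40, 95% interval 0.28 to 2.07, 2.26-fold), with an edgeR adjusted p of 1 over all genes tested and an unadjusted p of 0.0149 in the model of genotype alone. No gene passed at an adjusted p under 0.05 in this comparison (percent called 0), and 1.92% of all genes had an unadjusted p under 0.05. Across all genes, 5.22% had het and WT libraries that did not overlap, 2.94% with het higher. Same-numbered WT and het libraries deviated together from their group means (r = 0.326, 0.285 and 0.235 over all genes, for the numbers 1, 2 and 3), and the replicate block changed the call. Other-numbered WT and het pairs had r of -0.188 to -0.0752. Deviations within a group sum to 0, so positive r in same-numbered pairs forces the other pairs below 0 on balance. These negative values are therefore no separate evidence of a pairing. Some homo libraries deviated about as closely with a different number, homo-4 with WT-3 (0.269) and het-3 (0.242), and homo-2 with het-1 (0.247). The labels do not say what the number marks. In WT and het, the libraries numbered 1 were also those with over 1000 Y-linked counts. Number 1 and Y-linked counts thus cannot be told apart in these 2 groups. In a model of the 6 WT and het libraries with the number as a block, Fos had a log2 fold change of 1.15 (SE 0.17) and an edgeR adjusted p of 0.0362. There, 0.0178% of 16877 genes were called, 1 of them higher (0.00593%), namely Fos, with Crisp1 (log2 fold change -0.73), a cysteine-rich secretory protein, and Eps8l1 (-0.55), an actin regulator, lower. With all 10 libraries in the blocked model the adjusted p of Fos was 0.101, with a log2 fold change of 1.16. Fos was picked with this het and WT difference already known, so these values describe it and are no independent evidence for it.

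Within the numbered pairs the Fos ratio of het over WT was 2 for number 1, 1.75 for number 2 and 3.07 for number 3. Fos was thus higher in het in all 3 pairs, and the excess was largest where het-3 was the het library. Y-linked genes had over 1000 counts in both libraries of pair 1 and at most 2 in those of pairs 2 and 3. Without het-3 and homo-4 the log2 fold change of Fos in het against WT was 0.97 (edgeR adjusted p = 0.833).

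**Figure D1:**
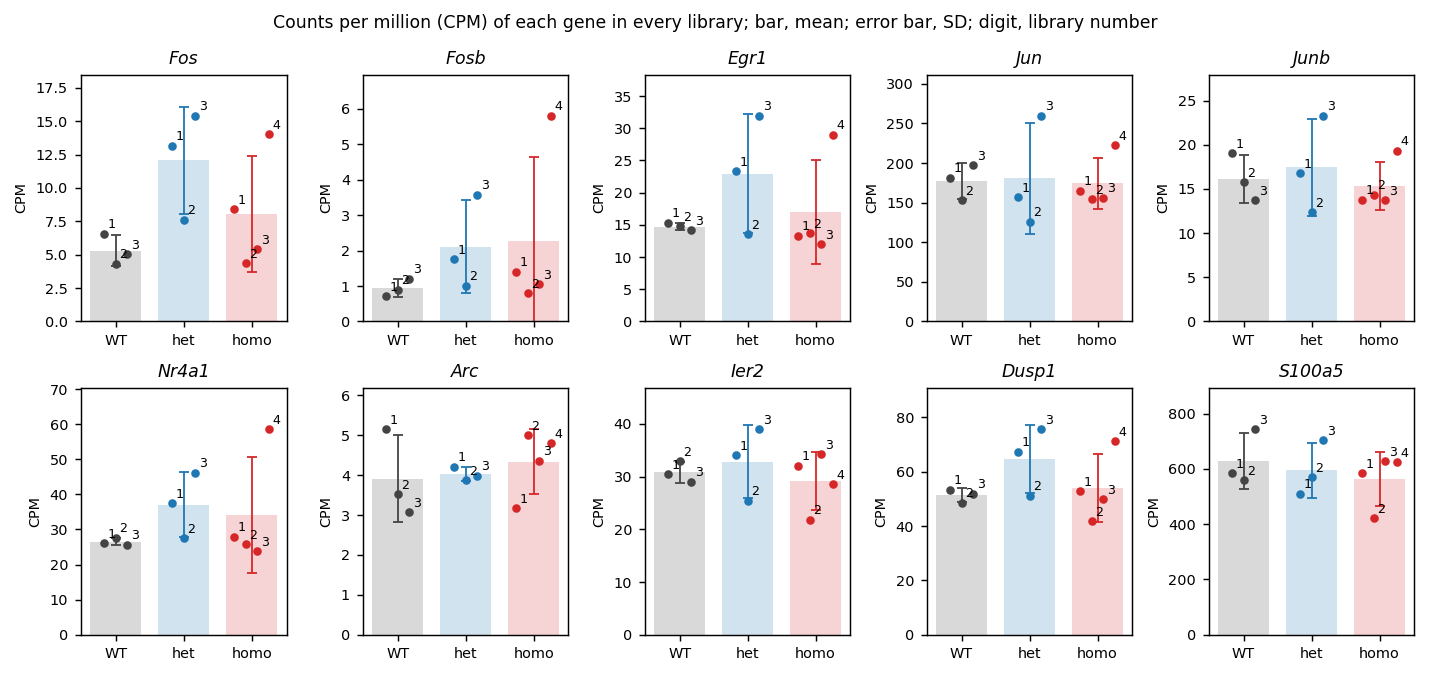
Level of each of the 10 genes in CPM (y axis) by genotype (x axis); points are libraries with their number, bars are means and error bars SD, cut at 0 for Fosb in homo mice. In Fos the 3 het points, from 7.61 to 15.4 CPM, sit above the 3 WT points, from 4.34 to 6.58 CPM, and homo-4 is the highest homo point in Fos, Fosb, Egr1, Jun, Junb, Nr4a1 and Dusp1.

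Fosb, a close relative of Fos that also pairs with Jun proteins, lies on chromosome 7 (19302696 to 19310051, minus strand) and was the lowest of the members. It had 0.71, 0.90 and 1.21 CPM in WT, 1.76, 1.01 and 3.58 CPM in het and 1.40, 0.80, 1.06 and 5.81 CPM in homo libraries. The highest levels were in homo-4 and het-3, and the 3 genotypes overlapped. These levels rest on 18 to 161 counts a library. The log2 fold change was 1.17 (SE 0.75) in het and 1.29 (SE 0.71) in homo against WT mice, both with an edgeR adjusted p of 1. Without homo-4 the homo value was 0.23, and without het-3 the het value was 0.57.

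Egr1, a zinc finger transcription factor, lies on chromosome 18 (34859823 to 34864984, plus strand). Its level was 15.3, 14.8 and 14.1 CPM in WT, 23.3, 13.6 and 32.0 CPM in het, and 13.3, 13.8, 12.0 and 29.0 CPM in homo libraries. WT libraries lay within 1.08-fold of each other, while het and homo libraries each spread over more than 2-fold, with het-1, het-3 and homo-4 above the rest. The log2 fold change was 0.64 (SE 0.36) in het and 0.21 (SE 0.34) in homo against WT mice, and the homo value changed sign, to -0.16, without homo-4.

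Nr4a1, an orphan nuclear receptor, lies on chromosome 15 (101254269 to 101274795, plus strand) and had the same 3 libraries at the top, with homo-4 first. Its level was 26.1, 27.6 and 25.7 CPM in WT, 37.5, 27.5 and 46.2 CPM in het and 27.96, 25.7, 23.8 and 58.6 CPM in homo libraries. Again WT was tight, het-1 and het-3 were above every WT library, and het-2 was inside the WT range. The log2 fold change was 0.48 (SE 0.32) in het and 0.36 (SE 0.30) in homo against WT mice, and the latter became -0.02 without homo-4.

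Jun, the partner that AP-1 shares with all Fos proteins, lies on chromosome 4 (95049034 to 95052222, minus strand), as 1 exon that overlaps the antisense gene Junos. It had 181.3, 153.0 and 197.4 CPM in WT, 157.0, 126.1 and 259.8 CPM in het and 165.1, 154.1, 156.0 and 222.4 CPM in homo libraries. Het-3 and homo-4 were the highest libraries and het-2 the lowest, and the group means differed by less than the SD of any group (177.2 ± 22.5 in WT, 181.0 ± 70.0 in het and 174.4 ± 32.4 in homo mice, SD, n = 3, 3 and 4). Junb, a related AP-1 protein on chromosome 8 (84974484 to 84978718, minus strand), overlaps Prdx2 on the opposite strand. Its level was 19.1, 15.8 and 13.7 CPM in WT, 16.8, 12.4 and 23.3 CPM in het and 13.8, 14.3, 13.8 and 19.3 CPM in homo libraries. Het-3 and homo-4 led here too, followed closely by WT-1. Ier2, a nuclear protein of the immediate early class encoded by 1 exon on chromosome 8 (84661331 to 84662852, minus strand), had 30.4, 32.9 and 29.1 CPM in WT, 34.0, 25.4 and 39.0 CPM in het and 32.1, 21.8, 34.3 and 28.6 CPM in homo libraries. It shared the high value of het-3, but homo-4 was below every WT library. The log2 fold changes of Jun, Junb and Ier2 were 0.027, 0.11 and 0.090 in het against WT mice, with SE 0.23, 0.20 and 0.16.

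Dusp1 encodes a phosphatase that switches off the MAP kinases and so limits the response that induced it. Its annotated span on chromosome 17 (26505590 to 26562128, minus strand) overlaps Ergic1 on the opposite strand, and the strand setting of the counting was not given in the sources used here. Its level was 53.5, 48.6 and 52.0 CPM in WT, 67.4, 51.1 and 75.8 CPM in het and 52.9, 41.8, 49.96 and 71.3 CPM in homo libraries. Het-3, homo-4 and het-1 stood above the other 7 libraries, which lay between 41.8 and 53.5 CPM. The log2 fold change was 0.33 in het against WT mice (SE 0.16, unadjusted p = 0.0527, edgeR adjusted p = 1) and 0.075 in homo against WT mice (SE 0.15). Dusp1 was also the gene, of all tested, whose log2 CPM was most like that of Fos over the 10 libraries (Pearson r = 0.945, Spearman rho = 0.927).

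Arc, whose protein controls glutamate receptor removal at synapses, lies on chromosome 15 (74669083 to 74672570, minus strand) and did not share this order. It had 5.16, 3.52 and 3.07 CPM in WT, 4.21, 3.87 and 3.99 CPM in het and 3.17, 4.997, 4.36 and 4.80 CPM in homo libraries. The highest were WT-1 and homo-2, and het-3 was near the middle. Its log2 fold change was 0.033 (SE 0.23) in het and 0.15 (SE 0.21) in homo against WT mice. S100a5, on chromosome 3 (90608523 to 90611780, plus strand), had 583.9, 559.3 and 744.7 CPM in WT, 511.1, 570.9 and 703.6 CPM in het and 584.1, 421.7, 628.1 and 623.9 CPM in homo libraries. WT-3 and het-3 were highest and homo-2 lowest, and all 3 genotypes overlapped. The log2 fold change of S100a5 was -0.08 (SE 0.15) in het and -0.15 (SE 0.14, 95% interval -0.45 to 0.14) in homo against WT mice, both with an edgeR adjusted p of 1. Relative to the summed level of 10 mature OSN markers the S100a5 ratio was 0.0589 ± 0.0083 for WT, 0.0568 ± 0.0059 for het and 0.0551 ± 0.0074 for homo mice (± SD, n = 3, 3 and 4), so that the genotypes differed by less than 1 SD.

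Scaled by exonic length, S100a5 was by far the most abundant member, at 1.46e+03 CPM per kb in WT mice. Jun followed at 55.6, Ier2 at 20.2 and Dusp1 at 15.5 CPM per kb. Nr4a1 (7.55) and Junb (7.03) were close to each other, and below them came Egr1 (3.29), Fos (2.26), Arc (1.28) and Fosb (0.151 CPM per kb). Fos had 5.13 CPM per kb in het mice, where Egr1 had 5.12.

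In the model of genotype alone, none of the 10 members was called in homo against WT mice at an edgeR adjusted p under 0.05, where 0.0698% of all genes were called, all of them Taar genes. In this comparison 6 members were higher and 4 lower, with a median log2 fold change of 0.11 beside 0.00012 over all genes tested, and no member reached an unadjusted p of 0.05, as 2.41% of all genes did. Without homo-4 this balance turned to 3 higher and 7 lower (median -0.062). In het against WT mice 9 were higher and 1, S100a5, was lower (median 0.22, against -0.00088 over all genes), with 1 member, Fos, at an unadjusted p under 0.05. Without het-3 the balance was 6 higher and 4 lower (median 0.13). In homo against het mice 0.0756% of all genes were called and no member at an adjusted p under 0.05, with no member among the 2.48% of genes at an unadjusted p under 0.05. There 2 members were higher and 8 lower (median -0.14, against -0.00097 over all genes), which without het-3 became 6 higher and 4 lower (median 0.059). The difference farthest from 0 was that of Fos, -0.58 (SE 0.37, edgeR adjusted p = 0.999). DESeq2 likewise called no member in any of the 3 comparisons. In homo against het mice, the block by library number over all libraries called Fos (-0.975, edgeR adjusted p = 0.0338), among 0.14% of all genes. Not every same-numbered pair with a homo library correlated above 0.1, so the number has no shown meaning in that fit. The 3 comparisons share libraries, so their values are not independent of each other. Homo and WT libraries overlapped in all 10 members, as did homo and het libraries, while 3.55% and 3.93% of all genes did not overlap in these comparisons.

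**Figure D2:**
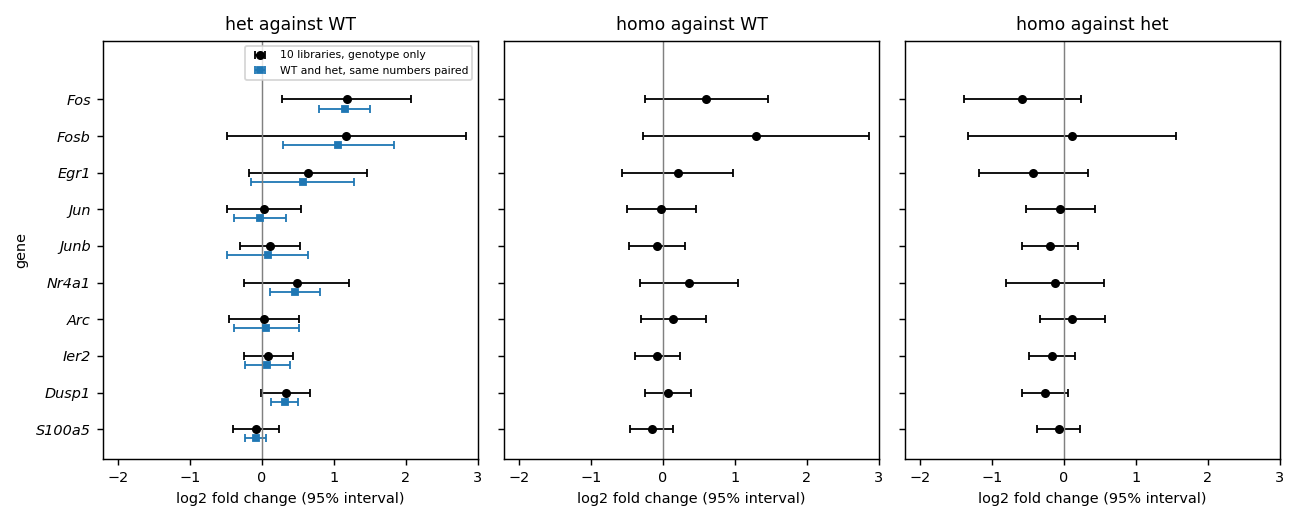
Log2 fold change with its 95% interval (x axis) of each gene (y axis) in the 3 comparisons; black points, model of genotype on 10 libraries; blue squares, model of the 6 WT and het libraries with the library number as a block. In het against WT mice the interval of Fos, from 0.28 to 2.07, lies above 0 and those of the other 9 genes include 0 in the model of genotype. In the blocked model the intervals of Fosb (0.299 to 1.83), Nr4a1 (0.115 to 0.803) and Dusp1 (0.134 to 0.504) also lie above 0. None of these 3 was called there (edgeR adjusted p = 0.743 for each).

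Most members shared the libraries in which they were high. Het-3 and homo-4 were the highest 2 of the 10 libraries in 7 of the 10 members (Fos, Fosb, Egr1, Jun, Junb, Nr4a1 and Dusp1), and in 3.22% of all genes tested. Het-3 ranked in the top 2 in 9 members and homo-4 in 7, and het-1 was in the top 3 in 6 members. In contrast homo-2 was among the lowest 3 in 7 members and WT-2 in 6. Over the 9 members other than S100a5, the median log2 deviation from the mean of the gene was 0.57 in het-3, 0.36 in homo-4 and 0.26 in het-1, and between -0.31 and -0.05 in the other 7 libraries. Members were picked with earlier results of these libraries known, so the count describes them.

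**Figure D3:**
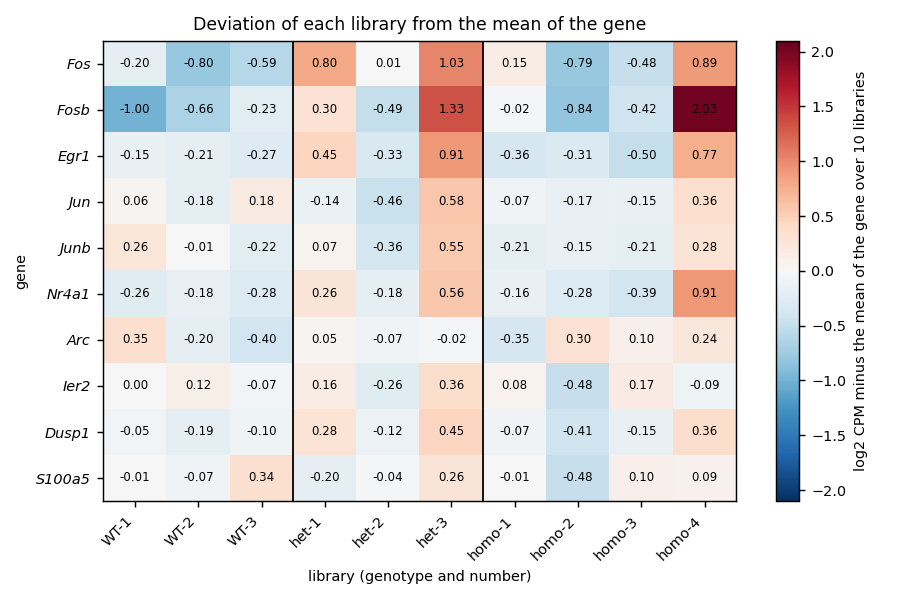
Log2 CPM of each gene (rows) in each library (columns) minus the mean of the gene over 10 libraries; red is above and blue below the mean, with the value printed. The columns het-3 and homo-4 are red for Fos, Fosb, Egr1, Jun, Junb, Nr4a1 and Dusp1. S100a5 is above its mean in both (0.263 and 0.0892) but highest in WT-3 (0.344). Ier2 is above its mean in het-3 (0.361) and below it in homo-4 (-0.087), and Arc is near its mean in het-3 (-0.0249) and above it in homo-4 (0.243).

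By numbered pairs, het was above WT in 6 of 10 members for number 1, in 5 for number 2 and in 9 for number 3. Ratios above 1.5 were found in 3, 1 and 5 members. The number 3 ratio of Fosb was 2.96 and that of Egr1 2.26, while the number 2 ratio of Egr1 was 0.919 and that of Nr4a1 0.997. Fos was the 1 member with a ratio above 1.5 in all 3 pairs. The share of all genes that meets these pair criteria was not worked out, so the counts describe the members only. When the library number was tested across the 9 libraries numbered 1 to 3, with genotype in the model, no member was called against 2.68% of all genes. This test includes homo libraries, whose r with the same number was -0.0995 to -0.0122 for WT and -0.148 to 0.159 for het. The number thus had no shown meaning for them. Fos (edgeR adjusted p = 0.0599), S100a5 (0.0853) and Dusp1 (0.119) had an unadjusted p under 0.05, as had 19.8% of all genes. In the 6 WT and het libraries alone S100a5 was called by number (edgeR adjusted p = 0.0152), among 10.2% of all genes, and the adjusted p of Fos was 0.0564.

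**Figure D4:**
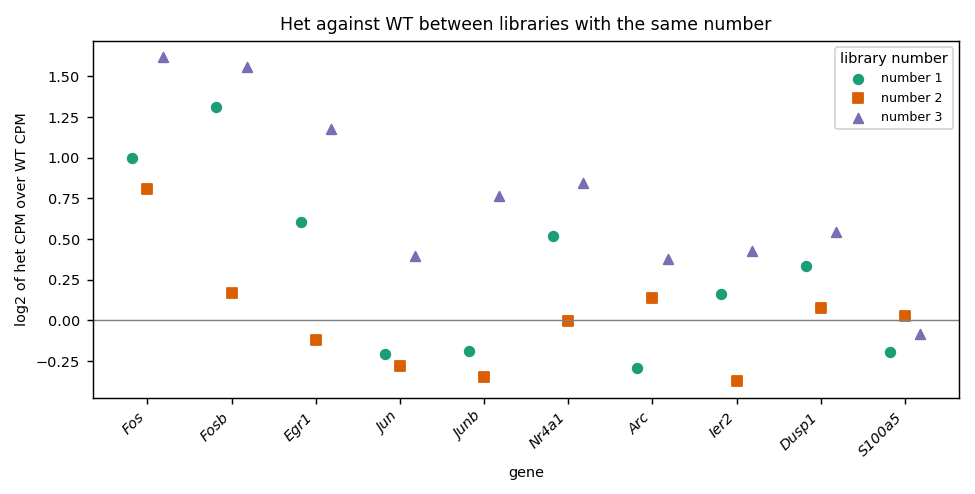
Log2 ratio of het over WT CPM (y axis) between libraries of the same number, for each gene (x axis); each symbol is 1 pair. The pair numbered 3 lies above 0 in 9 genes, and Fos is above 0.8 in all 3 pairs.

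Several members varied more among libraries of 1 genotype than most genes did, with the genotypes pooled. The spread was not alike in each genotype. For Egr1 the highest level over the lowest was 1.08 in WT, 2.35 in het and 2.41 in homo libraries, and for Nr4a1 it was 1.08, 1.68 and 2.46. Arc went the other way, with 1.68, 1.09 and 1.57. The SD of log2 CPM within genotype was 0.93 for Fosb, 0.57 for Fos, 0.49 for Egr1 and 0.43 for Nr4a1, against a median of 0.177 over all genes tested. This placed Fosb at the 99.2 percentile, Fos at 94.4, Egr1 at 91.8 and Nr4a1 at 88.6. Jun (0.33) and Junb (0.31) were lower, at the 81.1 and 78.2 percentiles, and Arc, Ier2, Dusp1 and S100a5 had SDs between 0.236 and 0.28. Jun had this spread at a mean of 177.2 CPM, above the mean of 93.8% of all genes. These percentiles rank members against genes of all levels, and the mean of Fosb was above that of 13.7% of genes. They were taken from the libraries in which the members were picked and are given with no test.

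**Figure D5:**
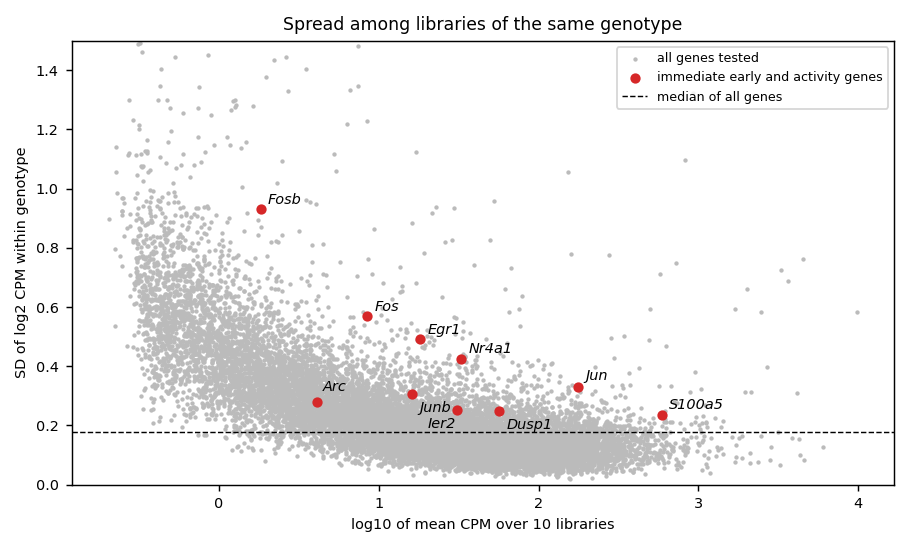
SD of log2 CPM among libraries of the same genotype (y axis, shown up to 1.5) against the log10 of the mean CPM (x axis) for all genes tested (grey) and the 10 members (red), with the median of all genes as a dashed line. Fosb (0.93), Fos (0.57), Egr1 (0.49) and Nr4a1 (0.43) lie in the upper part of the genes of their level, and Arc (0.28) among the rest.

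Other genes of the immediate early class were read from a list of transcription factors and a list of effectors. Of the 22 factors tested of 24 listed, none was called in any comparison by edgeR, with 11 higher and 11 lower in het against WT mice (median 0.0024). At an unadjusted p under 0.05 there was 1 gene of the list in het against WT mice. This was Klf6, a zinc finger factor, with a log2 fold change of -0.20 (edgeR adjusted p = 1). Het-3 and homo-4 were again the highest 2 libraries in 9 of the 22, namely Egr2, Egr3, Nr4a2, Nr4a3, Atf3, Btg2, Zfp36, Csrnp1 and Srf. Nr4a3, a nuclear receptor of the Nr4a1 family, had the largest difference of the list, 0.83 (SE 0.71), and it rested on het-3. It had 8.37, 4.96 and 9.51 CPM in WT, 7.72, 4.63 and 28.5 CPM in het and 6.16, 5.04, 4.91 and 13.2 CPM in homo libraries. Atf3, a stress-induced factor of the CREB family, came next with 0.41, and Maff, a small Maf protein, was at the low end with -0.20.

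Of the 23 effectors tested of 24 listed, none was called, with 12 higher and 11 lower in het against WT mice (median 0.0068). Dusp2, Dusp5, Pim1, Plk3, Socs3 and Cyr61 had het-3 and homo-4 as their highest 2 libraries. Cyr61, a secreted matrix protein, had 30.9, 21.5 and 16.8 CPM in WT, 26.3, 23.2 and 56.7 CPM in het and 26.6, 17.3, 31.1 and 45.1 CPM in homo libraries, and its log2 fold change in het against WT mice was 0.61 (SE 0.45). Inhba, a subunit of activin, had 0.39, at levels of 0.212 to 1.05 CPM. Gadd45b, a stress response gene, and the kinase gene Pim1 were at the low end, with -0.20 and -0.18.

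A list of 10 genes known to follow activity in OSNs over a longer time held 1, Kirrel3, with het-3 and homo-4 as its highest 2 libraries. None of the 10 was called, with 3 higher and 7 lower in het against WT mice (median -0.074). Kirrel2 and Kirrel3 encode adhesion molecules that OSN activity is known to raise and to lower, and Nrp1 encodes an axon guidance receptor set by cAMP. As the list holds genes that activity moves in either direction, its balance and median give no direction of activity. Kirrel2 had 746.1, 848.4 and 516.7 CPM in WT, 721.3, 722.0 and 293.7 CPM in het and 707.0, 539.4, 625.0 and 576.5 CPM in homo libraries. The library numbered 3 was the lowest in WT and in het, and het-3 was the lowest of all. Its log2 fold change in het against WT mice was -0.28 (SE 0.33), beside -0.19 for Rasgrp4, 0.090 for Kirrel3 and 0.16 for Nrp1 (edgeR adjusted p = 1 for each).

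Lists of stress and timing genes were read in the same way. Het-3 and homo-4 led in 2 of 10 heat shock genes, Hspa1a and Hspa1b, in 1 of 14 clock genes (Cry2) and in 1 of 8 glucocorticoid-induced genes (Fkbp5). Hspa1b, an inducible chaperone, had 8.07, 7.97 and 7.91 CPM in WT, 9.43, 6.86 and 16.4 CPM in het and 7.84, 8.18, 6.99 and 13.3 CPM in homo libraries. The 2 high values were those of het-3 and homo-4, and the log2 fold change in het against WT mice was 0.44 (SE 0.27). That of Hspa1a was 0.14, and at the low end were Hspb1 (-0.18) and Hspe1 (-0.098). None of these lists held a called gene in any comparison of genotypes. In het against WT mice the ends of the clock list were Per3 (0.29) and Clock (0.14), and Cry1 (-0.17) and Ciart (-0.17). Those of the glucocorticoid list were Pdk4 (0.21) and Zbtb16 (0.14), and Cdkn1a (-0.13) and Tsc22d3 (-0.11). By library number, across 9 libraries, where 2.68% of all genes were called, the clock genes Per1 (edgeR adjusted p = 0.0164), Clock (0.0323) and Nr1d2 (0.0404) were called, and so were Alas2 (6.73e-05), Cldn5 (0.0262) and Gap43 (0.0455) of the cell type lists.

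No gene of the 10 cell type lists had het-3 and homo-4 as its highest 2 libraries, against 3.22% of all genes tested. These lists hold 1 to 10 tested genes each, so few would be looked for at that share. Summed markers of mature OSNs were 11300 CPM in het-3 and 10060 CPM in homo-4, just above and just below the 10110 to 11020 CPM of WT. Summed markers of immature OSNs were highest in WT-3 (3393 CPM), followed by het-3 (3282), homo-4 (3155) and het-1 (2920), and were 2729 to 2831 CPM in the other 6 libraries. Summed myeloid markers were 75.5 and 83.8 CPM against 74.0 to 93.1 in WT. The 8 markers of central neurons and glia, as olfactory bulb attached to the epithelium would bring, summed to 115.6 CPM in homo-4 and 102.5 in het-3, the highest of the 10 libraries, and to 87.0 to 97.4 CPM in WT. Of these, Slc17a7, the glutamate transporter of central neurons, had 0.486, 0.860 and 0.865 CPM in WT, 0.834, 1.09 and 1.34 CPM in het and 1.21, 0.929, 2.29 and 5.41 CPM in homo libraries. Gad1, the GABA-synthesising enzyme, was at 6.24 CPM in homo-4, 3.22 in homo-1, 3.05 in homo-3 and 1.38 in het-3, and at 0.665 CPM or less in the other 6 libraries. Gad2 was above every WT library in every het and homo library, and Gfap in all of them but homo-2 (1.99 CPM). Homo-3 had the highest Gfap level (4.28 CPM), and the 8 markers summed to 101.7 CPM there, close to het-3. The median log2 deviation of the members other than S100a5 was -0.21 in homo-3. Neurod6 was within the WT range in both het-3 and homo-4 (0.773 and 1.12 CPM, against 0.747 to 1.17). Mbp was within it in het-3 (63.4 CPM), and Tbr1 (1.95 CPM) and Eomes (15.4 CPM) in homo-4. The part of the immature OSN and central markers in the levels of the members was not tested.

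Among all genes tested, those most like Fos over the 10 libraries, by Pearson's r of log2 CPM, were Dusp1 (0.945), Mx2 (0.927), Fam83d (0.892), Nr4a1 (0.86) and Pbx4 (0.859). Mx2 encodes an interferon-induced GTPase and Pbx4 a homeodomain factor. Mx2 had 3.55, 3.25 and 3.11 CPM in WT, 5.97, 3.45 and 5.001 CPM in het and 4.57, 3.18, 3.39 and 5.59 CPM in homo libraries, with het-1, homo-4 and het-3 at the top. Egr1 was the sixth gene in that order (0.858) and Fosb ranked 14, while Junb (0.618), Jun (0.514), Ier2 (0.418), S100a5 (0.213) and Arc (0.103) were less like Fos. The genes most like S100a5 were Ilf2 (0.975), Rps26 (0.972), Ngrn (0.97), Rpp25l (0.966) and Hmgn3 (0.961). Rps26 is a ribosomal protein and Hmgn3 a nucleosome-binding protein. The points are 10 libraries that share 3 genotypes, and these values are descriptions.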

How the data were processed

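RNA-seq counts of 10 MOE libraries (3 WT, 3 het, 4 homo) were analysed, with groups and numbers from the sample titles. Per the labels and the study's methods, RNA was extracted with DNase treatment, directional poly(A) libraries were made, and the authors trimmed reads (Trimmomatic 0.36), aligned them to mm10 (HISAT2 2.1.0) and counted them per gene (featureCounts, Subread 1.6.2) to give the deposited raw counts. A second table, also deposited by the authors, held normalized signal, that is counts divided by DESeq2 1.20.0 size factors, and 100% of its values gave back whole reads equal to the raw counts (tolerance 0.01). The annotation, strand setting and treatment of multiply aligned reads were not given in the sources used here. Genes that overlap others are uncertain on that account.

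Counts were filtered in R 4.3.3 with edgeR 4.0.16 (filterByExpr, minimum count 10, minimum total 15), scaled by TMM and fitted with a robust quasi-likelihood model of genotype on all 10 libraries. Two-sided F tests were adjusted by Benjamini-Hochberg over the 17197 genes tested, and an adjusted p under 0.05 was a call. CPM used the library total, and log2 CPM a prior count of 2. Intervals are 95%. Number and pairing were examined in models with the library number as a block. The number was read as a pairing where same-numbered libraries correlated above 0.1 in every pair, which held for WT with het and not for homo. The test of library number and the block over all libraries include homo libraries all the same. Alternatives used DESeq2 1.42.0, limma 3.58.1 on log2 of the normalized values plus 1, other scalings and filters, and the omission of libraries. Positions are from GENCODE on mm10, 1-based.

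The members and gene lists were chosen with earlier results of these data known. Named genes were the members, listed genes called in a fit of all libraries, the 2 highest and 2 lowest of each non-cell-type list in het against WT mice, the 5 genes most like Fos and like S100a5, genes called in the blocked het and WT fit, and markers where a value was needed. The genes sharing het-3 and homo-4 as top libraries were named after their values were seen. The study gives its n as littermates, but the labels do not tie libraries to animals or litters, so p-values measure the spread between these samples. Within genotypes no libraries were alike to within sampling noise.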

Additional observations from a re-analysis of the deposited data

Results flagged for a closer look

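In homo mice 1 library, homo-4, stood apart from the other 3 in 5 of the members, by a gap to the nearest library above the 95% critical value of Dixon's test for 4 samples. Fosb was at 5.81 CPM in homo-4 and at 0.80 to 1.40 CPM in homo-1 to homo-3. Egr1 was at 29.0 CPM, against 12.0 to 13.8. Jun was at 222.4 CPM, against 154.1 to 165.1. Junb was at 19.3 CPM, against 13.8 to 14.3. Nr4a1 was at 58.6 CPM, against 23.8 to 27.96. In all, 17 values were examined in this way, and chance gives about 1 in 20. The members were chosen with earlier results known and their levels are not independent of each other, and all 5 come from 1 library. Groups of 3 libraries were not examined.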

How the results depend on the processing

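Of 871 values under alternative settings, 621 member fold changes kept their direction and side of the threshold, 47 changed sign and 2 passed the threshold. All sign changes were in fold changes that did not pass it. The rest were counts of called genes or members and the spread. Of these, 182 stayed the same or within 1.5-fold, and 19 moved farther or away from 0. In het against WT mice the replicate block in WT and het alone gave 3 called genes and 1 member, Fos (1.15, edgeR adjusted p = 0.0362). Its adjusted p ranged from 0.0362 to 1 over all alternatives. The block with all libraries, in which homo libraries share only a number and homo-4 adds nothing, gave 19 called genes in homo against WT, 24 (0.14% of all genes) with 1 member in homo against het (Fos, -0.97, edgeR adjusted p = 0.0338) and 22 with 1 member over any genotype. Same-numbered homo libraries correlated with WT at -0.0995 to -0.0122 and with het at -0.148 to 0.159. The block turned Egr1, Nr4a1 and Dusp1 in homo against WT to -0.158, -0.02 and -0.08, Jun in het against WT to -0.0102 (-0.0284 in WT and het alone), and Fosb in homo against het to -0.85, and changed no other call. Without het-3 and homo-4, chosen after seeing the data, homo against WT was -0.162 for Egr1, -0.0184 for Nr4a1 and -0.0731 for Dusp1, het against WT was -0.315 for Jun, -0.146 for Junb and -0.0434 for Ier2, and homo against het was -0.339 for Fosb, 0.171 for Jun and 0.0176 for S100a5. On the normalized table limma gave -0.03 for Jun in het against WT, and -0.182 for Fosb and 0.000838 for Jun in homo against het. The cause of these sign changes was not tested. Leaving out 1 library at a time left 12 to 14 called genes in homo against WT, 12 to 14 in homo against het, 12 to 14 over any genotype and 0 in het against WT, with 0 members in each. Member fold changes that changed sign there ran in homo against WT Arc from -0.00236 to 0.397, Dusp1 from -0.0729 to 0.168, Egr1 from -0.161 to 0.343, Ier2 from -0.16 to 0.0322, Jun from -0.143 to 0.0579, Junb from -0.197 to 0.0551 and Nr4a1 from -0.0182 to 0.498. They ran in het against WT Arc from -0.119 to 0.288, Ier2 from -0.0432 to 0.241, Jun from -0.314 to 0.226, Junb from -0.145 to 0.3 and S100a5 from -0.208 to 0.0486, and in homo against het Fosb from -0.943 to 0.725, Jun from -0.244 to 0.297, Junb from -0.376 to 0.0696, Nr4a1 from -0.502 to 0.0604 and S100a5 from -0.174 to 0.0575. The low end of Egr1, Nr4a1 and Dusp1 in homo against WT and of Fosb in homo against het was the value without homo-4. Genes called by library number were 458, and 1724 with 1 member (S100a5) in WT and het alone, 298 with a sex term, and 9 (without het-3) to 1444 (without homo-2) with 1 library left out, with 0 to 2 members (Ier2 without WT-2, S100a5 without homo-1 or homo-2, Fos and Jun without homo-3).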
